A study of Homo sapiens with 32 samples.

Results

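By design, KO THP-1 cells lack ACLY while HA THP-1 cells carry an inactive ACLY protein. The paper reports a significant reduction of ACLY activity in both lines. Their comparison without stimulation addresses what the absence of the protein adds to the loss of catalysis. THP-1 is a human monocytic leukemia cell line, named myeloid leukemia in the labels. The compared libraries were 4 of KO cells, the ACLY knockout, and 4 of HA cells, the knockout given back ACLY with the catalytically inactive H760A substitution, all untreated. They are 8 of the 32 libraries of the series, in which 12262 of 60107 genes reached a mean normalized count of at least 10 over these 8 libraries and were tested. The nearest gene inside this limit was AC018797.2 with a mean of 10.03, and the nearest outside was ACRV1 with 9.996. WT cells, the knockout given back wild-type ACLY, served as a reference without treatment, and KO and HA cells treated with 100 ng/ml LPS, a bacterial cell wall component, for 3 hours served as a second pair of groups. The remaining libraries, WT cells with LPS and SA cells without and with LPS, which are the knockout given back ACLY with the S455A substitution that removes a phosphorylation site, entered only the joint scaling and the estimate of spread. For HA, WT and SA cells, ACLY behind an EF1 promoter was delivered to the knockout line by lentivirus, with puromycin selection, and the methods do not state whether KO cells received a vector. Each genotype is a single line, so that its 4 libraries are repeats of that line. The p-values therefore measure the spread between repeat libraries, pooled over all groups of the series, which may be technical. Other differences between the lines cannot be told apart from the genotype.

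ACLY, ATP citrate lyase, splits citrate exported from mitochondria into acetyl-CoA and oxaloacetate in the cytosol and nucleus. Its acetyl-CoA feeds fatty acid and sterol synthesis and histone acetylation. Interferon-stimulated genes, which appear throughout the results, are the genes that cells raise when interferons act through JAK kinases and transcription factors of the STAT and IRF families. Monocytes also keep a low level of many of them without infection.

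Depth ran from 7346395 to 10505540 gene reads in the KO libraries (median 8173152) and from 8188012 to 12324297 in the HA libraries (median 10554218). All 12 monocytic markers examined, among them CD33, SPI1 and LYZ, passed the filter, with a summed normalized count of 33002 to 79335 in KO and 31489 to 54207 in HA. Of 8 lymphocyte markers, 7 were under the filter and CD3D, CD3E and CD2 had no read, with a summed count of 30.7 to 87.7 in KO and 49.8 to 70.2 in HA. None of 6 erythroid and megakaryocytic or 6 epithelial and mesenchymal markers passed the filter. On the first principal component of these 8 libraries, which held 55.7% of the variance, KO replicate 3 lay beside HA replicate 1 and away from the other KO libraries, and both had the fewest genes with a read in their group, 15672 and 15123. Fewer cells of one kind and less RNA per cell cannot be told apart in these bulk samples. The share of reads on mitochondrially encoded transcripts was 3.32% to 6.94% in KO and 6.08% to 8.11% in HA, and its part in the results was not tested.

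ACLY itself (ENSG00000131473, chr17:41866917-41930542, minus strand) did not separate the lines at the level of its RNA. Its normalized count was 97.5, 107, 82.3 and 67.2 in the KO libraries and 133, 81.4, 67.2 and 105 in the HA libraries. Both ranges overlapped, and they also overlapped the WT libraries at 90.6 to 117. The log2 difference between KO and HA was -0.10 with a 95% interval of -0.68 to 0.48 (limma adjusted p = 8.86e-01; exact two-sided permutation test p = 0.7143, where 4 against 4 libraries allow 0.0286 at the smallest). The libraries read the 3′ end of transcripts, and neither the labels nor the methods say which of these reads come from the lentiviral construct, so that the count does not check the knockout label. ACLY differed in sign when HA replicate 1 was left out (0.07) and when KO replicate 4 was left out (0.02).

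Between KO and HA cells 29 of 12262 tested genes differed at an adjusted p below 0.01 (0.237% of the genes; limma on log2(normalized count + 1), all 32 libraries in a single fit). In KO cells 26 of them were higher (0.212%) and 3 were lower (0.0245%). Before adjustment, 1278 genes had a p below 0.05. The 4 KO and 4 HA libraries did not overlap in any of the 29 genes. These genes were chosen on the same libraries, so that their separation follows largely from the choice and is only a description. Over all genes tested, the KO libraries lay entirely above the HA libraries in 2.78% and entirely below in 2.23%. A fit of the 8 libraries alone called 0 genes and had 1221 with an unadjusted p below 0.05, so that the calls rest on the spread estimated over all groups. SA LPS replicate 1 stood far from its group (library weight 0.056, the lowest of the 32), and without it 50 genes were called, 44 higher and 6 lower, all 29 among them. On the deposited scale, which sets KO lower by 0.242 on the log2 scale against HA, 28 genes were called with 10 higher and 18 lower, of which 13 are among the 29. Without KO replicate 3 and HA replicate 1, 30 genes were called, 22 of them the same. Leaving out a single library gave 8 calls without KO replicate 1, 10 without KO replicate 2, 12 without HA replicate 2, 15 without HA replicate 3 and 16 without HA replicate 4.

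**Figure D1:**
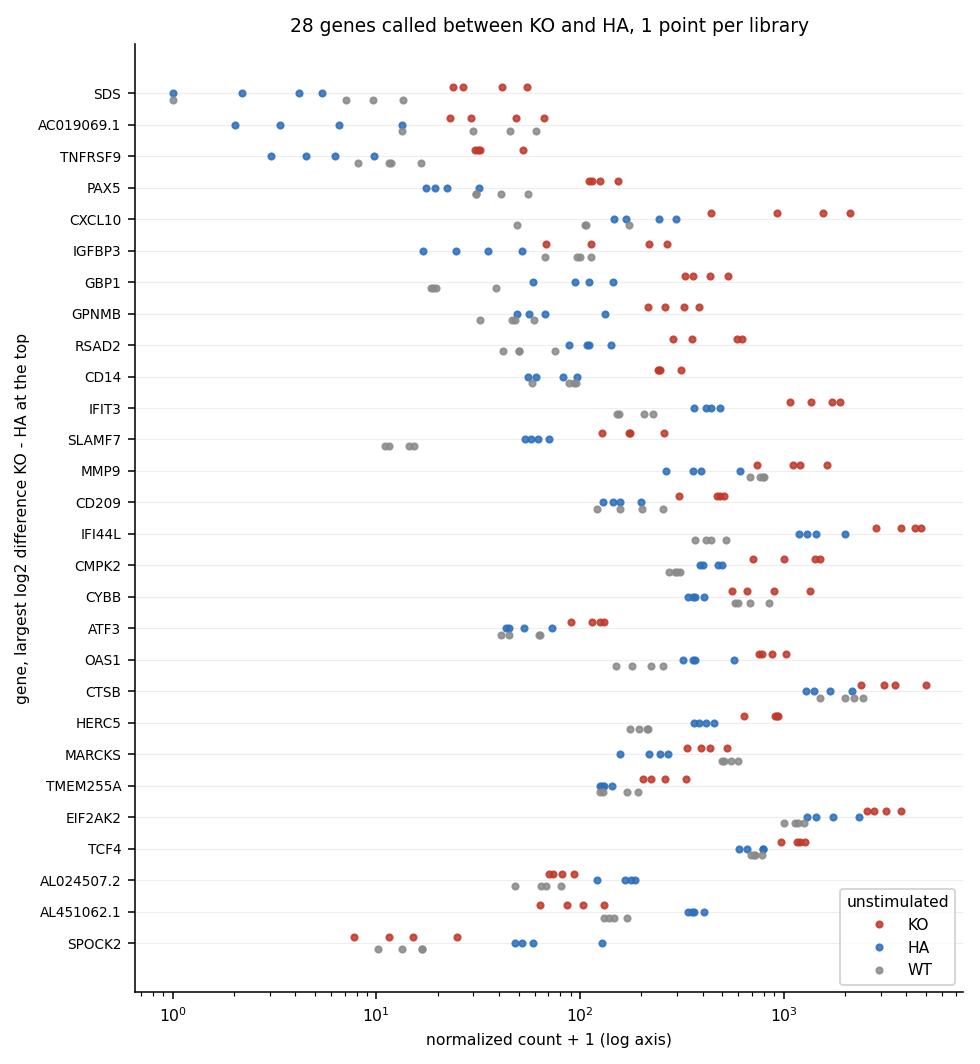
Normalized count + 1 on a log axis of 28 genes called between KO and HA cells, with 1 point for each of the 4 unstimulated KO (red), HA (blue) and WT (grey) libraries, ordered by the log2 difference. The 25 upper genes have all red points to the right of the blue points, the 3 lowest genes have them to the left, and the WT points lie below HA for some genes and beside KO for others.

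Antiviral interferon-stimulated genes made up 7 of the 26 genes higher in KO cells, while 18 of the 29 called genes were in none of the lists examined. The antiviral list was written with earlier results of these data known. Of the 62 tested from a list of 65, the 7 rose (IFI44L, IFIT3, RSAD2, CMPK2, OAS1, HERC5 and EIF2AK2) and 0 fell. Over all genes tested, 0.212% were called higher and 0.0245% lower. All 62 had a log2 difference above 0 on the joint scale, from 0.02 to 2.89 with a median of 0.82. Over all genes tested, 49.1% were above 0 and the median was -0.01. On the deposited scale 54 of the 62 were above 0, and the fewest above 0 with 1 library left out were 55. The KO libraries lay entirely above the HA libraries in 24 of the 62 genes and entirely below in 0, against 2.78% and 2.23% of all genes tested. The mean log2 level of the list was 9.86, 9.77, 9.75 and 9.55 in the KO libraries and 9.34, 8.84, 8.68 and 8.58 in the HA libraries. HA replicate 1 was the highest HA library, and still below each KO library. Without KO replicate 3 and HA replicate 1, 61 of 62 were higher, with a median of 0.98.

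IFI44L (ENSG00000137959, chr1:78619902-78646145, plus strand), an interferon-induced gene of the IFI44 family, was at 4433, 4753, 2847 and 3767 normalized counts in the KO libraries and at 1994, 1297, 1443 and 1192 in the HA libraries. The lowest KO library was thus well above the highest HA library, and the log2 difference was 1.42 ± 0.20 (SE, limma adjusted p = 3.41e-04). WT cells were lower again, at 365 to 522. Its neighbour IFI44 was at 281 to 514 in KO and 111 to 339.5 in HA with overlapping libraries, and its log2 difference of 0.91 ± 0.31 did not pass (limma adjusted p = 2.70e-01).

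IFIT3 (ENSG00000119917, chr10:89327307-89377473, plus strand), a member of the IFIT family of RNA-binding antiviral proteins, had 1722, 1892, 1358 and 1076 counts in KO and 487, 439, 414 and 361 in HA. No HA library reached the KO range, and the log2 difference was 1.80 ± 0.27 (SE, limma adjusted p = 3.93e-04). IFIT2, of the same family, was at 352 ± 111 in KO and 152 ± 50.1 in HA (SD, n = 4), with a log2 difference of 1.21 ± 0.31 that missed the limit although the libraries did not overlap (limma adjusted p = 9.23e-02).

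RSAD2 (ENSG00000134321, chr2:6865557-6898239, plus strand), the radical SAM enzyme viperin, and CMPK2 (ENSG00000134326, chr2:6840570-6866635, minus strand), a mitochondrial nucleotide kinase, are neighbours transcribed away from each other, and their annotated gene bodies overlap at the 5′ ends. RSAD2 had 627, 588, 285 and 354 counts in KO and 87.4, 107, 141 and 110.1 in HA, a log2 difference of 1.99 ± 0.34 (SE, limma adjusted p = 2.28e-03). CMPK2 had 1514, 1419, 703 and 1005 in KO and 497, 399.8, 477 and 388 in HA, a log2 difference of 1.34 ± 0.23 (SE, limma adjusted p = 2.28e-03). In both genes KO replicate 3 was the lowest KO library and remained above every HA library.

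OAS1 (ENSG00000089127, chr12:112905856-112933219, plus strand), an oligoadenylate synthetase that senses double-stranded RNA, was at 1032, 876, 779 and 761 in KO and 567, 319, 357 and 365 in HA, with a log2 difference of 1.12 ± 0.18 (SE, limma adjusted p = 1.03e-03). HERC5 (ENSG00000138646, chr4:88457119-88506163, plus strand), the ligase that attaches ISG15 to proteins, was at 904, 934, 636 and 926 in KO and 453, 386, 417 and 360.4 in HA, with a log2 difference of 1.06 ± 0.18 (SE, limma adjusted p = 2.93e-03). EIF2AK2 (ENSG00000055332, chr2:37099210-37157522, minus strand), the kinase PKR that stops translation on double-stranded RNA, was at 3192, 3785, 2571 and 2768 in KO and 2354, 1442, 1751 and 1308 in HA, with a log2 difference of 0.87 ± 0.17 (SE, limma adjusted p = 7.15e-03). For EIF2AK2 the gap was small, since HA replicate 1 came close to KO replicate 3. EPSTI1, another interferon-stimulated gene, was at 983 ± 207 in KO and 402 ± 184 in HA (SD, n = 4) and narrowly missed the limit (log2 difference 1.37 ± 0.27, limma adjusted p = 1.06e-02). It passed without HA replicate 1 (1.64, limma adjusted p = 1.27e-03) and without both KO replicate 3 and HA replicate 1 (1.67, limma adjusted p = 2.70e-03).

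The upstream sequences of 4 of these genes and of CD14 are shown because several called genes share a short motif there. The 250 bases before a RefSeq transcription start (build GRCh38.p14) are printed 5′ to 3′ in lower case, with matches to GAAANNGAA on either strand in capitals, a short form of the element that STAT and IRF factors bind. For IFIT3 and RSAD2, which have 2 windows each, the window with more matches is shown. The gene positions given above are those of GENCODE, and the windows of IFI44L, IFIT3, RSAD2 and CD14 lie inside them.
IFI44L (chr1:78620198-78620447, plus strand): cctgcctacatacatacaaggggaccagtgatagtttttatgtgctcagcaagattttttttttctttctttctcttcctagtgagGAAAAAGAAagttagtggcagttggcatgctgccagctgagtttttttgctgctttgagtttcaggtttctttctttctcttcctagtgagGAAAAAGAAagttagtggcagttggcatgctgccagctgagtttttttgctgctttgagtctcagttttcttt
IFIT3 (chr10:89332279-89332528, plus strand): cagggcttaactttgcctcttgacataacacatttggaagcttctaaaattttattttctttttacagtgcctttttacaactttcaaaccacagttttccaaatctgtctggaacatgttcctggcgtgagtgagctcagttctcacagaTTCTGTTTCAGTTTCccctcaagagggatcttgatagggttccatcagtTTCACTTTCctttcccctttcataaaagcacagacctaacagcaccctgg
HERC5 (chr4:88456869-88457118, plus strand): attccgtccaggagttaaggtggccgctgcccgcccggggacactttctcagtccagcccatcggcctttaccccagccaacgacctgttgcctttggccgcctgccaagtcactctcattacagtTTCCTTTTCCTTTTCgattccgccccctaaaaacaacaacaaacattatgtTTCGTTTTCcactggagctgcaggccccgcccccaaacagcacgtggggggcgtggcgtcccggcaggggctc
RSAD2 (chr2:6865635-6865884, plus strand): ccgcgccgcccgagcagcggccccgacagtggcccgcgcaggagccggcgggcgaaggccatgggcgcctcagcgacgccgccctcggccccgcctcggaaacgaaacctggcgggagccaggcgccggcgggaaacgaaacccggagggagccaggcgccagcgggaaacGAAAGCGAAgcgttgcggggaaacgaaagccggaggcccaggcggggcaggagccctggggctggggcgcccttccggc
CD14 (chr5:140633176-140633425, minus strand): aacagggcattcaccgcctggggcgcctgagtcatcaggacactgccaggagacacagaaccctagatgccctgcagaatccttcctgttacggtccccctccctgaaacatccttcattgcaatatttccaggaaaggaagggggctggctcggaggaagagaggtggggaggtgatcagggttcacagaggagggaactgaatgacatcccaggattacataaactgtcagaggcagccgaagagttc

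The IFI44L window held 2 matches, beginning 164 and 73 bases before the start, and the IFIT3 window held 3, at 99, 93 and 50 bases, the first 2 of which overlap. HERC5 also had 3 matches, at 124, 118 and 73 bases with an overlap of the first 2, RSAD2 had 1 at 79 bases, and CD14 had 0. Of the 26 genes higher in KO cells, 21 had a window in the RefSeq table, and 9 of those (42.9%) held at least 1 match: TCF4, HERC5, CYBB, IFI44L, CD209, IFIT3, RSAD2, GBP1 and CXCL10. Over all genes tested, 679 of 9104 genes with a window held a match (7.5%), and 6.9% of all 35116 windows of the table did. TCF4 has 10 windows, and a match in any of them was counted. The only gene of the 3 lower ones that had a window held 0 matches. A match is a description of the letters and no site of binding was measured.

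**Figure D2:**
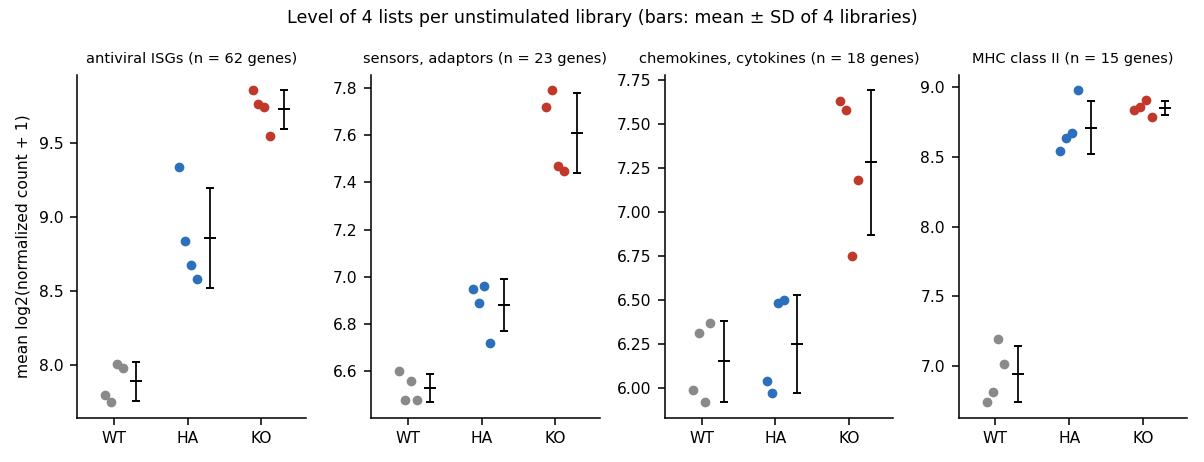
Mean of log2(normalized count + 1) over the genes of 4 lists in each unstimulated WT (grey), HA (blue) and KO (red) library, with the mean and SD of 4 libraries as black bars. Antiviral genes step up from WT through HA to KO, the sensors and the chemokines are highest in KO, and the MHC class II list is at a similar level in HA and KO.

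The lists of the interferon gamma type and of chemokines and cytokines, which are shorter, gave 1 call each. Over all genes tested, 0.212% were called higher. GBP1 (ENSG00000117228, chr1:89051882-89065360, minus strand), a guanylate-binding GTPase that coats intracellular pathogens, had 432, 359, 533 and 328 counts in the KO libraries and 144, 93.4, 109.6 and 58.1 in the HA libraries, with a log2 difference of 2.06 ± 0.30 (SE, limma adjusted p = 3.41e-04). WT cells held 17.6 to 37.6 counts. Of the 17 tested genes of its list, 1 rose and 0 fell, and 14 were above 0 with a median of 0.64. GBP2 was at 770.5 ± 202 in KO and 685 ± 144 in HA (SD, n = 4), a log2 difference of 0.16 ± 0.17, and APOL6 at 759.6 ± 54.8 and 513 ± 18.4, a log2 difference of 0.56 ± 0.14. Neither passed (limma adjusted p = 7.00e-01 and 7.42e-02).

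CXCL10 (ENSG00000169245, chr4:76021118-76023497, minus strand), a chemokine that attracts T cells through CXCR3, was at 2109, 1557, 441 and 927 in KO and 168, 147, 295 and 244 in HA. The KO libraries spread widely, but the lowest was above the highest HA library, and the log2 difference was 2.39 ± 0.43 (SE, limma adjusted p = 4.73e-03). The related CXCL11 had 119, 93.2, 71.5 and 80.0 in KO and 50.8, 17.6, 55.4 and 33.5 in HA. Its libraries did not overlap, and its log2 difference of 1.29 ± 0.38 did not pass (limma adjusted p = 1.78e-01).

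CCL2, a chemokine for monocytes, varied widely within a line, with 356, 596, 13.5 and 156 counts in KO and 9.15, 2.39, 16.5 and 38.8 in HA. KO replicate 3 lay within the HA range, and the log2 difference of 3.58 ± 1.25 did not pass (limma adjusted p = 3.06e-01). CCL4 had 88.5, 80.5, 28.4 and 69.9 in KO and 2.03, 21.6, 28.3 and 25.6 in HA, where KO replicate 3 was just above HA replicate 3 (log2 difference 2.04 ± 0.53, limma adjusted p = 1.03e-01). CCL5 was at 798 ± 62.9 in KO and 849.7 ± 71.8 in HA (SD, n = 4), a log2 difference of -0.09 with a 95% interval of -0.38 to 0.20. The cytokine IL6 had 0 reads in all 8 libraries, which allows up to 3 reads in each. In the list of chemokines and cytokines, 18 of 39 genes were tested, of which 1 rose and 0 fell, and 14 were above 0 with a median of 0.87. IL1RN, an antagonist of the interleukin receptor, was at 1061 ± 521 and 814 ± 367, a log2 difference of 0.39 ± 0.39 (limma adjusted p = 6.80e-01).

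Several myeloid genes outside the interferon lists were higher in KO cells as well. CD14 (ENSG00000170458, chr5:140631728-140633700, minus strand), the monocyte coreceptor for LPS, was at 314, 244, 240.3 and 247 counts in KO and 81.3, 95.8, 60.1 and 54.6 in HA. No HA library came near the lowest KO library, and the log2 difference was 1.85 ± 0.26 (SE, limma adjusted p = 3.41e-04). In WT cells CD14 was at 57.2 to 95.1, the same range as in HA cells.

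CD209 (ENSG00000090659, chr19:7739993-7747564, minus strand), the C-type lectin DC-SIGN, had 472, 512, 306 and 484 in KO and 199, 157, 128 and 144 in HA, a log2 difference of 1.48 ± 0.26 (SE, limma adjusted p = 2.93e-03). GPNMB (ENSG00000136235, chr7:23235967-23275108, plus strand), a membrane glycoprotein of macrophages and pigment cells, had 323, 262, 383 and 216 in KO and 132, 66.2, 48.3 and 55.5 in HA, a log2 difference of 2.04 ± 0.32 (SE, limma adjusted p = 8.48e-04). For both genes the libraries of the lines were clearly separate, with KO replicate 3 the lowest KO library for CD209 and the highest for GPNMB.

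The secreted and lysosomal proteases MMP9 (ENSG00000100985, chr20:46008908-46016561, plus strand) and CTSB (ENSG00000164733, chr8:11842524-11869533, minus strand) were also higher. MMP9 had 1628, 1106, 1207 and 736 in KO and 608, 393, 263 and 359 in HA, a log2 difference of 1.54 ± 0.22 (SE, limma adjusted p = 3.41e-04). CTSB, cathepsin B, had 4980.3, 3536, 2407 and 3121 in KO and 1283, 1687, 1408 and 2170.1 in HA, a log2 difference of 1.08 ± 0.19 (SE, limma adjusted p = 3.83e-03). The gap between KO replicate 3 and HA replicate 4 was narrow for CTSB.

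CYBB (ENSG00000165168, chrX:37780018-37813461, plus strand), the catalytic subunit of the phagocyte NADPH oxidase, was at 1353, 900.2, 661 and 557 in KO and at 339.5 to 407 in HA, a log2 difference of 1.15 ± 0.21 (SE, limma adjusted p = 4.73e-03). SLAMF7 (ENSG00000026751, chr1:160739057-160754821, plus strand), a surface receptor of the SLAM family, was at 258, 174, 176 and 128 in KO and 61.0, 69.4, 56.6 and 52.9 in HA, a log2 difference of 1.56 ± 0.26 (SE, limma adjusted p = 1.80e-03). MARCKS (ENSG00000277443, chr6:113857345-113863475, plus strand), an actin-binding substrate of protein kinase C, was at 529.6, 434, 333 and 390.1 in KO and 156, 247, 218 and 269 in HA, a log2 difference of 0.93 ± 0.18 (SE, limma adjusted p = 7.63e-03). HA libraries were tightly grouped for CYBB and SLAMF7, and KO libraries were the more variable.

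A list of monocyte and macrophage surface genes that does not hold CD14, CD209 or SLAMF7 gave no call. Of its 24 tested genes, 0 were called, against 0.237% of all genes tested, and 16 were above 0 with a median of 0.39. ITGB2, an integrin subunit, was at 28077 ± 16394 in KO and 11348 ± 6818 in HA (SD, n = 4), a log2 difference of 1.18 ± 0.67 (limma adjusted p = 5.23e-01), and the signaling adaptor TYROBP was at 6923 ± 1267 and 8243 ± 1074, a log2 difference of -0.26 ± 0.17 (limma adjusted p = 5.57e-01). S100 and granule proteins leaned the other way, with 13 of 19 below 0, a median of -0.20 and 0 calls. S100A9 was at 69007 ± 21168 and 64722 ± 17991, a log2 difference of 0.09 ± 0.35, and the neutrophil protease CTSG at 38051 ± 10584 and 55807 ± 18617, a log2 difference of -0.53 ± 0.26.

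The remaining genes higher in KO cells have varied roles. PAX5 (ENSG00000196092, chr9:36833269-37034268, minus strand), a transcription factor of the B cell lineage, was at 124, 152, 113 and 109.5 in KO and 21.4, 18.4, 16.5 and 30.8 in HA, a log2 difference of 2.49 ± 0.35 (SE, limma adjusted p = 3.41e-04). No HA library approached the KO range. CD79B, part of the B cell receptor, was at 7.48 ± 3.27 in KO and 12.7 ± 4.51 in HA (SD, n = 4; log2 difference -0.71 ± 0.63, limma adjusted p = 6.46e-01). TCF4 (ENSG00000196628, chr18:55222185-55664787, minus strand), an E protein needed by plasmacytoid dendritic cells, was at 1277, 1208, 1165 and 974 in KO and 606, 794, 787 and 662 in HA, a log2 difference of 0.70 ± 0.12 (SE, limma adjusted p = 3.74e-03). This was the smallest difference among the 29 genes, with low spread in both lines.

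TNFRSF9 (ENSG00000049249, chr1:7915871-7943165, minus strand), the costimulatory receptor CD137, was at 51.3, 30.7, 29.7 and 31.3 in KO and 2.03, 8.78, 3.54 and 5.29 in HA, a log2 difference of 2.73 ± 0.36 (SE, limma adjusted p = 2.80e-04). These values rest on 22 to 40 reads in KO and 2 to 11 in HA. IGFBP3 (ENSG00000146674, chr7:45912245-45921874, minus strand), which binds insulin-like growth factors, was at 217, 266, 67.5 and 112 in KO and 50.8, 16, 23.6 and 34.4 in HA, a log2 difference of 2.30 ± 0.43 (SE, limma adjusted p = 6.74e-03). TMEM255A (ENSG00000125355, chrX:120258650-120311556, minus strand), a transmembrane protein, was at 222, 259.5, 331 and 203 in KO and 128, 142, 131 and 124 in HA, a log2 difference of 0.92 ± 0.18 (SE, limma adjusted p = 7.43e-03). IGFBP3 spread over several fold within KO cells, while TMEM255A was nearly constant among HA libraries.

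SDS (ENSG00000135094, chr12:113392445-113426301, minus strand), serine dehydratase, showed the largest log2 difference of the 29 genes, 3.71 ± 0.70 (SE, limma adjusted p = 6.74e-03), but from few reads, 17 to 42 in KO and 0 to 5 in HA. The normalized counts were 53.9, 40.2, 22.9 and 25.8 in KO and 0.00, 3.19, 1.18 and 4.41 in HA. The long noncoding RNA AC019069.1 (ENSG00000272711, chr2:74832655-74833987, minus strand), named HK2-DT in GENCODE, was at 47.4, 65.7, 28.4 and 22.1 in KO and 1.02, 5.59, 2.36 and 12.3 in HA, a log2 difference of 2.96 ± 0.58 (SE, limma adjusted p = 8.48e-03). Together with TNFRSF9 these are the 3 called genes with a mean under 10 in HA, which passed the filter through the KO libraries, as 429 of all genes tested passed through 1 of the groups. ATF3 (ENSG00000162772, chr1:212565334-212620777, plus strand), a stress-induced transcription factor, was at 89.8, 125, 131 and 113 in KO and 72.2, 43.9, 51.9 and 42.3 in HA, a log2 difference of 1.13 ± 0.21 (SE, limma adjusted p = 6.74e-03). It was the single call among 23 tested ATF4 and amino acid stress genes, while 0.212% of all genes tested were called higher. The other 2 named members of this list, ATF4 and ATF5, had log2 differences of -0.42 ± 0.32 and -0.10 ± 0.19 (limma adjusted p = 6.12e-01 and 8.36e-01).

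Only 3 genes were lower in KO than in HA cells. SPOCK2 (ENSG00000107742, chr10:72059034-72089032, minus strand), an extracellular proteoglycan, was at 14.1, 10.6, 6.75 and 23.9 in KO and 46.8, 51.1, 57.8 and 128 in HA, a log2 difference of -2.28 ± 0.42 (SE, limma adjusted p = 5.12e-03). The noncoding RNA AL451062.1 (ENSG00000229444, chr1:43709392-43727343, minus strand), named ST3GAL3-AS1 in GENCODE, was at 62.8, 85.8, 131 and 103 in KO and 407, 363, 356 and 338 in HA, a log2 difference of -1.97 ± 0.33 (SE, limma adjusted p = 1.80e-03). It lies antisense to ST3GAL3, which had a log2 difference of -0.69 ± 0.14 (limma adjusted p = 1.68e-02), and since the sources used here do not state whether counting used the strand, reads of both genes cannot be told apart. The noncoding RNA AL024507.2 (ENSG00000272476, chr6:107957413-107959986, plus strand) was at 69.2, 73.1, 81.0 and 92.9 in KO and 121, 176, 185 and 166 in HA, a log2 difference of -1.02 ± 0.20 (SE, limma adjusted p = 7.63e-03). Its annotated start overlaps SEC63 on the opposite strand, which had a log2 difference of -0.16 ± 0.15 (limma adjusted p = 6.59e-01). Among the higher genes, CXCL10, IFIT3, SDS and EIF2AK2 likewise overlap a gene on the opposite strand, namely ART3, LIPA, SDSL and GPATCH11, whose log2 differences of 1.44, 0.41, 0.16 and -0.33 did not pass.

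Beside WT cells, the 29 genes fell into different orders. Over all genes, 2.85% were called between KO and WT and 2.45% between HA and WT. Both comparisons share the WT libraries with each other, and the KO and HA libraries with the comparison that chose the 29 genes, so that their values are given as a description. Same-numbered KO and WT libraries deviated together, with correlations of 0.33 to 0.68, the highest for replicate 3. Those of other numbers, -0.62 to 0.37, overlapped this range. The fit of all 32 libraries called 350 genes between KO and WT, with 18 of the 26 higher genes. A fit of these 8 libraries alone called 175, with 13 of the 26, and 718 with a replicate block, with 20. Between HA and WT, whose numbers did not pair, the calls were 300 in all 32 libraries. They were 191 in the 8 libraries alone and 5 there with a block. In the same order, 6, 5 and 0 of the 26 genes were called higher in HA, and 3, 2 and 0 lower. Of the 3 genes lower in KO, 2, 3 and 0 were called higher in HA. Of the 26 genes higher in KO than HA, 18 were called higher in KO than WT (1.83% of all genes), 6 were called higher in HA than WT (1.42%), and all 6 were among the 18. A further 3 were called lower in HA than WT (1.03%), and 5 (TMEM255A, CTSB, CYBB, IGFBP3 and SDS) were called in neither comparison. The 6 were IFI44L, IFIT3, OAS1, HERC5, GBP1 and SLAMF7, in which the levels rose from WT over HA to KO. The other called antiviral genes, RSAD2, CMPK2 and EIF2AK2, were called higher in KO than WT but not called between HA and WT, as was CXCL10. SLAMF7 had a log2 difference to WT of 2.23 in HA and 3.79 in KO, GBP1 of 2.10 and 4.16, and IFI44L of 1.75 and 3.16. The antiviral list had a median of 0.97 in HA and 1.81 in KO against WT.

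In a second pattern HA cells were close to WT and KO cells stood away from both. CD14 had a log2 difference to WT of -0.20 in HA and 1.66 in KO, CD209 of -0.19 and 1.29, ATF3 of 0.01 and 1.14, and TCF4 of -0.04 and 0.66. In another pattern, HA cells stood away from WT and KO cells were closer to it. MARCKS had a log2 difference to WT of -1.30 in HA and -0.37 in KO, MMP9 of -0.97 and 0.57, AC019069.1 of -2.71 and 0.25, SPOCK2 of 2.24 and -0.04, and AL024507.2 of 1.32 and 0.31. In the fit of all 32 libraries, all 5 of these were called between HA and WT and not between KO and WT.

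**Figure D3:**
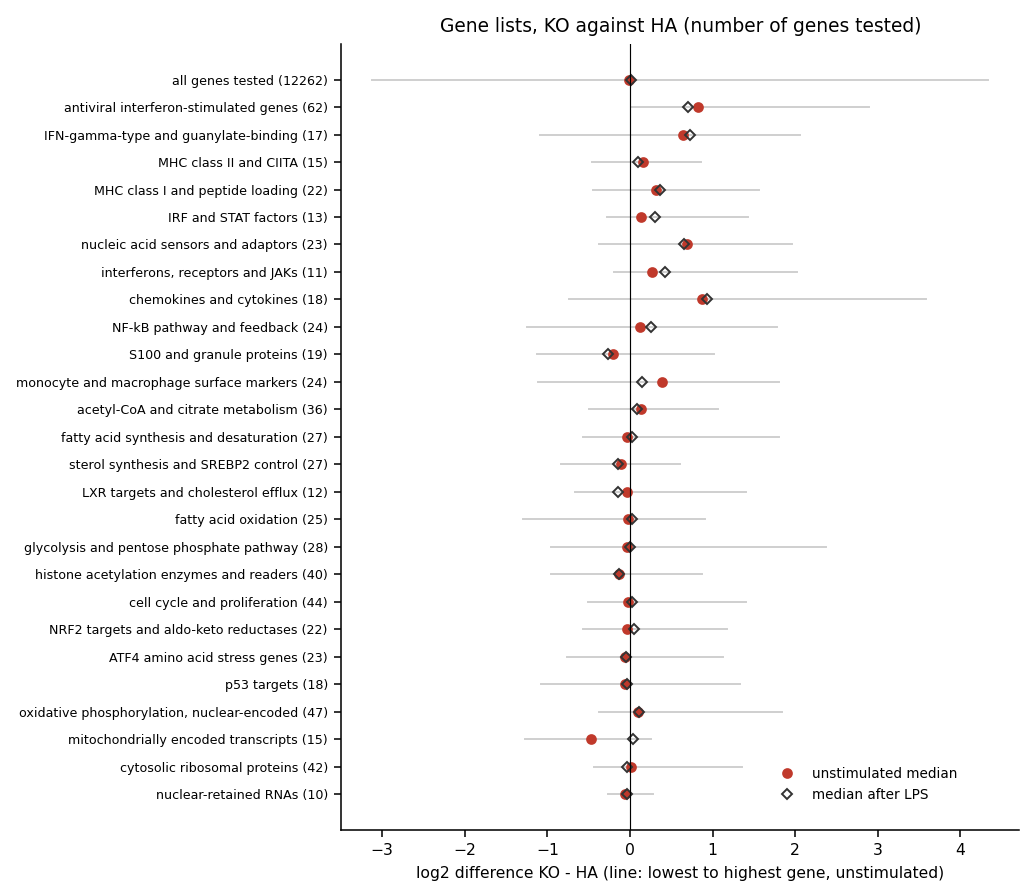
Log2 difference between KO and HA for all genes tested and 26 lists of at least 10 tested genes, with a red point for the unstimulated median, an open diamond for the median after LPS and a grey line from the lowest to the highest gene without LPS. Antiviral genes, chemokines, sensors and genes of the interferon gamma type have medians from 0.64 to 0.87, and the metabolic lists lie near 0.

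Among other immune lists, 20 of the 23 tested nucleic acid sensors and adaptors were above 0, with a median of 0.69. The only call of this list was CD14, a coreceptor for LPS and not a sensor of nucleic acids, while 0.212% of all genes tested were called higher. On the deposited scale 16 of these 23 were above 0, as were 12 of 18 chemokines and cytokines and 12 of 17 genes of the interferon gamma type. The mean log2 level of the sensors and adaptors was 7.72, 7.79, 7.47 and 7.45 in the KO libraries and 6.95, 6.89, 6.96 and 6.72 in the HA libraries, which did not overlap. IFI16, a DNA sensor, was at 3053 ± 879.9 in KO and 1966 ± 796 in HA (SD, n = 4), and the related MNDA at 2079.9 ± 218 and 1423 ± 204, with log2 differences of 0.69 ± 0.25 and 0.55 ± 0.19 (limma adjusted p = 3.32e-01 and 2.88e-01). STAT3 had a log2 difference of -0.23 ± 0.26 (limma adjusted p = 7.12e-01). Of 13 IRF and STAT factors, 8 were above 0 with a median of 0.14, and 4 on the deposited scale.

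Interferons, their receptors and JAK kinases had 11 tested genes with 0 calls, against 0.237% of all genes tested, and a median of 0.27. The receptor chains IFNAR1 and IL10RB had log2 differences of -0.19 with a 95% interval of -0.53 to 0.15 and 0.12 with an interval of -0.19 to 0.42. MHC class I and peptide loading genes had 0 calls among 22 tested and a median of 0.32, with B2M at 54013, 45569, 34232 and 33779 in KO and 35010.5, 32415, 28269 and 28337 in HA (log2 difference 0.41 ± 0.21, limma adjusted p = 4.87e-01), and the chaperone CALR at a log2 difference of 0.29 ± 0.28. MHC class II genes had 0 calls among 15 tested, with a median of 0.16 on the joint scale and -0.08 on the deposited scale. CD74, the invariant chain, was at 6869 ± 1768 and 7116 ± 388, a log2 difference of -0.08 with a 95% interval of -0.48 to 0.31, and HLA-DRB1 at -0.28 with an interval of -0.93 to 0.36. Reads of HLA-DRB1 may be shared with its close paralogs. Against WT, the class II list had medians of 1.74 in KO and 1.94 in HA. NF-kB pathway genes had 0 calls among 24 tested and a median of 0.12, with NFKBIA at 0.52 ± 0.43 and TNIP1 at -0.28 ± 0.26.

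Genes of the metabolism in which ACLY acts gave no call. Over all genes tested only 0.237% were called, so that 0 calls in lists of this size say little. In the acetyl-CoA and citrate list 22 of 36 tested genes were above 0 with a median of 0.14, and 13 on the deposited scale. ACSS2, which makes acetyl-CoA from acetate, was at 139.8, 154, 238 and 178 in KO and 190.1, 204, 153 and 251 in HA, with overlapping libraries and a log2 difference of -0.18 with a 95% interval of -0.79 to 0.43. IDH2 and ACAT2, the members with the highest counts, had log2 differences of -0.04 with an interval of -0.27 to 0.19 and -0.32 with an interval of -0.89 to 0.25.

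FASN, fatty acid synthase, was at 1689, 2151, 2129 and 1930.2 in KO and 3367, 2848, 2180.4 and 2498 in HA. Its KO libraries all lay below the HA libraries, by a small gap, and the log2 difference of -0.45 ± 0.22 did not pass (limma adjusted p = 4.84e-01). Of 27 fatty acid synthesis genes, 12 were above 0 with a median of -0.03, and the acyltransferase AGPAT2 and the desaturase FADS1 had log2 differences of -0.57 ± 0.32 and -0.33 ± 0.19. Of 27 sterol synthesis genes, 12 were above 0 with a median of -0.11. The pathway enzymes FDFT1 and FDPS had log2 differences of -0.14 ± 0.24 and -0.33 ± 0.25.

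Of 12 LXR target and cholesterol efflux genes, 6 were above 0 with a median of -0.04. ABCA1, a cholesterol exporter, was at 100.0, 42.4, 22.9 and 26.7 in KO and 37.6, 23.1, 18.9 and 24.7 in HA, where KO replicate 1 alone lay above the HA range by a wide margin (log2 difference 0.65 ± 0.67, limma adjusted p = 6.86e-01). ABCG1 was under the filter, with 7 reads in the KO and 5 in the HA libraries together. APOC1 and SOAT1 had log2 differences of -0.62 ± 0.29 and 0.10 ± 0.14. Fatty acid oxidation, with 12 of 25 above 0, and glycolysis, with 11 of 28, had 0 calls. CPT1A, HADHA, GAPDH and ENO1 had log2 differences of -0.05 ± 0.15, -0.29 ± 0.22, -0.29 ± 0.43 and -0.08 ± 0.14.

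Enzymes that write, remove or read histone acetylation had 0 calls among 40 tested, 26 of them below 0 with a median of -0.13, and the reader BRD2 had a log2 difference of -0.14 ± 0.16. Cell cycle genes had 0 calls among 44 tested and a median of -0.02, with TOP2A at -0.28 ± 0.20 and CDC20 at -0.01 ± 0.14. Targets of NRF2 had 0 calls among 22, p53 targets 0 among 18, and nuclear-encoded respiratory chain subunits 0 among 47 with a median of 0.10. The ferritin chains FTH1 and FTL were at log2 differences of 1.17 ± 0.54 and -0.01 ± 0.18, the p53 targets AEN and MDM2 at -0.08 ± 0.19 and 0.11 ± 0.12, and the respiratory chain subunits COX4I1 and UQCRB at -0.23 ± 0.17 and 0.08 ± 0.29. A miss of the limit in these lists does not show that the lines are alike, since only 0.237% of all genes tested were called.

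Of the lists read as signs of RNA quality, mitochondrially encoded transcripts stood out, with 13 of 15 lower in KO cells and a median of -0.47. They had 0 calls, against 0.237% of all genes tested. Their mean log2 level was 13.23, 13.30, 13.89 and 14.35 in KO and 13.91, 14.18, 14.02 and 14.74 in HA, so that the libraries overlapped, and after LPS the median was 0.04. MT-RNR2 and MT-ND3 had log2 differences of -0.69 ± 0.38 and -0.28 ± 0.27. Ribosomal protein genes were even, with 23 of 42 above 0 and a median of 0.01 (RPS12 -0.05 ± 0.25, RPS24 0.01 ± 0.29), and nuclear-retained RNAs had 4 of 10 above 0, with MALAT1 at -0.07 ± 0.30 and OIP5-AS1 at -0.26 ± 0.13. PECAM1, the only tested gene of the erythroid, megakaryocytic, epithelial and fibroblast list, was at -0.05 ± 0.19. By chromosome, the medians of nuclear genes ran from -0.13 on chromosome 19, where 35.2% of 916 genes were above 0, to 0.11 on chromosome 4, where 62.2% of 413 were.

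After LPS, in libraries that entered the choice of the 29 genes through the joint scaling and the shared estimate of spread, all 26 higher genes were again above 0 in KO and all 3 lower genes below. Of the 26, 25 had an unadjusted p below 0.05 in this direction, against 5.73% of all genes tested, and in 23 the KO libraries lay entirely above the HA libraries, against 2.67%. For the 3 lower genes, 2 had an unadjusted p below 0.05, against 4.77% of all genes, and 2 did not overlap, against 2.42%. The same lines gave both sets of libraries, so that this repeats a difference between lines. At the adjusted limit only IFI44L was called after LPS (0.00816% of the genes; log2 difference 1.34 ± 0.20, limma adjusted p = 5.32e-03), while 1287 genes had an unadjusted p below 0.05. It was lost without KO LPS replicate 1, where 1 other gene was called, and without KO LPS replicate 2 or HA LPS replicate 2, 3 or 4, each of which left 0 calls. Without SA LPS replicate 1 there were 17 calls, IFI44L among them, and on the deposited scale 61 genes were called, 2 higher and 59 lower. The median over the 26 genes was 1.51 without and 1.19 with LPS, where the first was the basis of the choice.

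**Figure D4:**
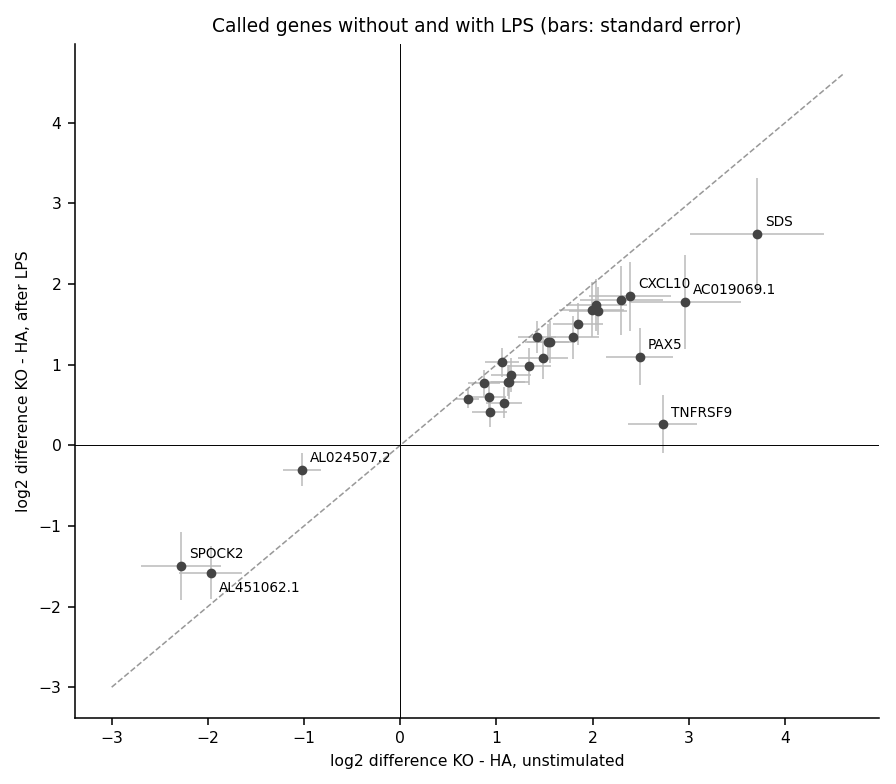
Log2 difference between KO and HA of 28 genes called without LPS (x axis) and the same difference after 3 hours of LPS (y axis), with standard errors as bars and a dashed line of equal values. All points keep their sign and lie between 0 and the dashed line, and TNFRSF9 lies near 0 after LPS.

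The change of the KO-HA difference with LPS was called for 0 genes (limma; 131 had an unadjusted p below 0.05). The 3 genes with the smallest p were TNFRSF9, CCL5 and PTGS2. TNFRSF9 was at 80.7, 53.5, 59.3 and 61.0 in KO and 48.7, 64.8, 46.5 and 51.4 in HA after LPS, where the libraries overlapped, a change of -2.47 ± 0.50 (limma adjusted p = 4.22e-01). CCL5, whose libraries overlapped without LPS, was at 2736, 3146, 2702 and 2345 in KO and 1952, 1338, 1655 and 1517 in HA after it, a change of 0.85 ± 0.20. PTGS2, the inducible cyclooxygenase, was at 14.8 ± 9.69 in KO and 31.4 ± 7.5 in HA without LPS and at 52.0 ± 16 and 25.3 ± 8.0 with it (SD, n = 4), a change of 2.27 ± 0.57 (limma adjusted p = 1.00e+00, which is also that of CCL5). CD14 had lower counts after LPS, with 40.3 to 86.1 in KO and 13.2 to 30.0 in HA, with a log2 difference of 1.5 ± 0.26 between them.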

How the data were processed

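RNA of THP-1 lines was sequenced with the QuantSeq 3′ mRNA-seq FWD kit, which reads transcript ends, in 32 libraries, 4 in each of 8 groups, and groups were taken from the labels. Per the methods, the authors trimmed reads with Bbduk, aligned them to GRCh38 with STAR, counted them per gene with HTSeq-count and normalized with DESeq2. The annotation release and the strand setting are not given in the sources used here. The values the authors deposited are normalized counts with decimal commas, scaled within each line, and so not directly comparable between lines.

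Dividing by the size of 1 read returned whole reads in every library (100.000% of values within 0.05), and these were scaled together by median-of-ratios factors over 32 libraries (11489 genes). The 92 spike-in entries held 1 read in all and were left out, as was every gene under a mean of 10 over the KO and HA unstimulated libraries. The log2 of the normalized count + 1 was modelled by limma (3.58.1; R 4.3.3) with 8 group means and an intensity trend, and p-values were adjusted by Benjamini-Hochberg over 12262 genes, with a limit of 0.01. A fold change on this scale understates the change of low genes. Tables were handled in Python 3.11.15 with pandas 2.3.3 and numpy 2.4.6. Positions are those of GENCODE 44 on GRCh38, found for 56104 of 60107 gene identifiers, and promoters are those of RefSeq. Counting error at these depths limits genes of few reads most. Same-numbered KO and WT libraries deviated together (correlation of deviations 0.33 to 0.68, and -0.62 to 0.37 for other numbers), though no label explains the numbers. Replicate numbers did not pair KO and HA (-0.32 to 0.38 for same numbers) or HA and WT (-0.25 to 0.29).

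Named genes were ACLY, B2M and the genes the study names, the 12 largest rises and falls among called genes with no overlap and a mean of at least 50 in the higher group, up to 4 called members of each of 28 lists or else the 2 with the highest counts, and the 3 smallest p-values for the change with LPS. The remaining called genes were named after their values were seen, and a few genes under the rule are not reported here, though they were tested and counted. Members and lists were chosen with earlier results of these data known. Alternatives were other pseudocounts, filters, scalings, samples in the fit, library weights, a replicate block and leaving out libraries.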

Additional observations from a re-analysis of the deposited data

Results flagged for a closer look

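In groups of 4 libraries, the highest or lowest library was set against the others by Dixon's criterion for the gap at the end of a range. Of 178 such groups over the named genes, 14 were past it, and chance alone gives about 1 in 20.

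Among the called genes, HERC5 was lowest in KO replicate 3 (635.7 normalized counts), CD14 and TNFRSF9 were highest in KO replicate 1 (314.2 and 51.3), and SPOCK2 was highest in HA replicate 4 (127.8). For each of the 4, the KO and HA libraries remained apart.

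Of the other genes, KO replicate 3 was the highest KO library for ATF4 (8257.9), GAPDH (36083.5), IFI16 (4371.9) and TOP2A (23563.0), and the lowest for ENO1 (12149.3). HA replicate 4 was the highest HA library for ACAT2 (4786.9) and CD79B (19.4). AEN was lowest in KO replicate 4 (538.2), FTL was lowest in HA replicate 3 (55718.1), and MT-RNR2 was highest in HA replicate 1 (325474.7).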

How the results depend on the processing

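The 29 calls (26 higher, 3 lower) became 0 when only the 8 libraries compared were fitted (1221 genes with an unadjusted p below 0.05), with limma and likewise with voom (0, with 1273). They became 9 with the 16 unstimulated libraries, 145 with library weights (113 higher, 32 lower), 53 at an adjusted p below 0.05, 8 to 35 with 1 KO or HA library left out and 50 without SA LPS replicate 1. The pseudocounts, the filters, TMM and factors of the 8 libraries gave counts of 21 to 31. None of the 29 genes changed direction under any setting. After LPS the count of 1 became 61 on the deposited scale (2 higher, 59 lower), 55 with library weights, 13 with voom on all libraries, 5 without KO replicate 3 and HA replicate 1, 0 to 3 with 1 KO or HA library left out and 17 without SA LPS replicate 1. The change with LPS gave 0 calls in each setting run. The voom fits, the library weights and single left-out libraries after LPS, the removal of SA LPS replicate 1, the joint removal of KO replicate 3 and HA replicate 1 and the refits against WT were chosen after seeing the data. The planned edgeR and DESeq2 fits were not run. The cause of these differences was not tested.

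Replicate numbers did not pair the KO and HA libraries (correlation of deviations of -0.32 to 0.38 for same numbers, -0.63 to 0.46 for others) or these groups after LPS (-0.17 to 0.33 and -0.57 to 0.47). For KO with WT the ranges were 0.33 to 0.68 for same numbers and -0.62 to 0.37 for others. For KO with KO LPS they were 0.12 to 0.68 and -0.66 to 0.35. Same numbers were thus all above 0 in both pairs of groups, but the ranges overlapped those of other numbers. With a replicate block, 0 genes were called in the libraries compared and 50 over all libraries (43 higher, 7 lower), all 29 among them, and after LPS 0 and 23. Between KO and WT the 350 calls became 718 with the block in the libraries compared, 421 with the block over all libraries and 175 in the libraries compared without it. Between HA and WT the 300 calls became 5, 414 and 191.

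On the deposited scale the medians were 0.40 for genes of the interferon gamma type, 0.45 for sensors, 0.08 for MHC class I, -0.08 for MHC class II, -0.10 for IRF and STAT factors, -0.11 for NF-kB, -0.45 for S100 and granule proteins, 0.15 for monocyte markers, -0.10 for acetyl-CoA, -0.28 for LXR targets, glycolysis and NRF2 targets, -0.26 for fatty acid oxidation and cell cycle, -0.37 for histone acetylation, -0.30 for ATF4 and p53 genes, and -0.31 for nuclear-retained RNAs. Without KO replicate 3 and HA replicate 1 they were 0.31 for IRF and STAT factors, -0.10 for cell cycle and 0.02 for p53 targets, and, within the spread between libraries, 0.06 for sterol synthesis, 0.11 for fatty acid synthesis, 0.01 for NF-kB, 0.10 for MHC class II and -0.87 for mitochondrially encoded transcripts.

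Signs turned for uncalled genes only. On the deposited scale these were GBP2 (-0.08), IL10RB (-0.12), MDM2 (-0.14), RPS24 (-0.23), S100A9 (-0.15), SOAT1 (-0.14) and UQCRB (-0.16). With TMM they were CDC20 (0.00) and FTL (0.01), and with library weights ACLY (0.02) and ENO1 (0.02). Without KO replicate 3 and HA replicate 1 they were ACLY (0.09), ENO1 (0.02), IL10RB (-0.02) and RPS24 (-0.04). With 1 library left out, the log2 difference ranged from -0.26 to 0.07 for ACLY, -0.18 to 0.03 for AEN, -0.25 to 0.06 for ATF5, -0.25 to 0.01 for CD74, -0.09 to 0.08 for CDC20, -0.08 to 0.08 for FTL, -0.01 to 0.29 for GBP2, -0.10 to 0.02 for IDH2, -0.23 to 0.10 for MALAT1, -0.18 to 0.04 for PECAM1, -0.21 to 0.04 for RPS12, -0.20 to 0.17 for RPS24, -0.10 to 0.25 for S100A9 and -0.09 to 0.22 for UQCRB.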
